A study of Mus musculus with 9 samples.

Results

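The GIMAP genes encode GTPases of immunity-associated proteins, a family of small GTP-binding proteins made mainly by lymphocytes. Their members were taken by symbol (Gimap1, Gimap3, Gimap4, Gimap5, Gimap6, Gimap7, Gimap8 and Gimap9), and these 8 were found among the 22017 genes of the expression table. GIMAP proteins share a GTP-binding domain, and several sit on membranes of lysosomes, the endoplasmic reticulum or Golgi. Loss of Gimap5 in rodents leads to loss of peripheral T cells, Gimap1 is needed for mature lymphocytes to persist, and Gimap6 has been tied to autophagy through its binding to a GABARAP-family protein. The family is therefore best known in T cells for its place in survival and quiescence.

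The study measured mRNA by sequencing in mouse T cells polarised in culture from splenic naive T cells of wild-type C57BL/6 mice. All cultures were activated through CD3 and CD28 for 3 days, received IL-2 at 100 U/mL from day 5, were restimulated on day 7 with 0.05 ug/mL of each antibody, and were harvested on day 10. The group Th1-1 was kept in Th1 condition at both stimulations (IL-12 at 10 ng/mL with antibody to IL-4), and the group Th17-17 in Th17 condition at both (TGF-b at 1, IL-6 at 20 and IL-1b at 10 ng/mL with antibodies to IFN-g, IL-12 and IL-4). The group Th17-1 was made in Th17 condition and moved to Th1 condition at the restimulation. Its name gives this order of culture conditions, and what its single cells had become was not tested here. Each group had 3 libraries, and values are FPKM, fragments scaled to transcript length and to the mapped fragments of the library. Whether the replicates of a group are independent cultures or mice is not stated in the labels, and the p-values therefore cover only the variation among these libraries, which may be technical. All cells were grown in vitro, and these are bulk samples, in which fewer cells of a type and less RNA per cell cannot be told apart.

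The libraries summed to between 382581 and 405985 FPKM, with 13374 to 14063 genes above 0. Read depth is unknown. All 9 markers of T cell identity were present, with summed levels of 1502 to 1676 FPKM in Th1-1, 1542 to 1716 in Th17-1 and 1726 to 1785 in Th17-17. Markers of B cells summed to 0.981 to 4.01 FPKM and Pax5, which defines them, reached at most 0.0213. NK cell markers summed to 1.76 to 17.7, with Ncr1 at most 0.0571. Macrophage markers summed to 9.08, 3.71 and 12.2 in replicates 1, 2 and 3 of Th1-1, 3.62, 4.09 and 7.00 in Th17-1, and 1.99, 1.63 and 3.04 in Th17-17, so that, as for the GIMAP sum below, Th1-1 had the highest mean and Th17-17 the lowest, replicate 2 was lowest in Th1-1 and replicate 3 highest in Th17-1. Most of it was Cd68, the 1 of these 6 markers that passed the filter, which was higher in Th1-1 than in Th17-17 (1.42 on the log2 scale, limma adjusted p = 0.0141), while Csf1r, which defines macrophages, reached at most 0.0109. The part of this in the GIMAP levels was not tested. Endothelial markers summed to 20.2 to 54.8, nearly all of it Pecam1, while Emcn was at 0 in all libraries and Cdh5 reached at most 0.583. The CD8 T cell markers Cd8a and Cd8b1 were not low: their sum was 19.8, 26.8 and 170 FPKM in replicates 1, 2 and 3 of Th1-1, 25.5, 41.1 and 152 in Th17-1, and 50.8, 79.0 and 203 in Th17-17, so replicate 3 was the highest of each group. The CD4 T cell markers Cd4 and Zbtb7b summed to 161, 109.6 and 83.6 FPKM in Th1-1, 123, 117 and 124 in Th17-1, and 117, 107 and 66.8 in Th17-17. In replicate 3 of each group the CD8 sum was above the CD4 sum, and in the other libraries below it.

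All 8 genes lie in one cluster on mouse chromosome 6, chr6:48647234-48770851 in GRCm38 (mm10), a span of 123.6 kb. Along the chromosome the order is Gimap8, Gimap9, Gimap4, Gimap6, Gimap7, Gimap1, Gimap5 and Gimap3, with Gimap6 and Gimap3 on the minus strand and the other 6 on the plus strand. Gimap4 spans chr6:48684549-48692060, Gimap6 chr6:48701582-48708225, Gimap7 chr6:48718621-48724636, Gimap5 chr6:48746197-48754210 and Gimap9 chr6:48676129-48679114. The 250 bases before the RefSeq start of Gimap7, the member whose level differed most between groups, and of Gimap9, the one that differed least, are shown for comparison. They come from chr6:48718371-48718620 and chr6:48675885-48676134, plus strand, GRCm38.p6, with matches to the searched motifs in capitals.
Gimap7: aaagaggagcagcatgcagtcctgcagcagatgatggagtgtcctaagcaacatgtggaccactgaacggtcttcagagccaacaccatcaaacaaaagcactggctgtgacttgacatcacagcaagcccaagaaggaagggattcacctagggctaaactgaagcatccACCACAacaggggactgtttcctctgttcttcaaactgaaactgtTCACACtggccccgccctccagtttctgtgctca
Gimap9: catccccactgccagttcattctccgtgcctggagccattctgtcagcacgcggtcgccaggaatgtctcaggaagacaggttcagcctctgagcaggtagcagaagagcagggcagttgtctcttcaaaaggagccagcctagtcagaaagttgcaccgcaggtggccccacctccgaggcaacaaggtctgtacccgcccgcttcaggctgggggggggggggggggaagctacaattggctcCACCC
In Gimap7 the capitals mark TGTGGT and GTGTGA, the core letters bound by RUNX and T-box factors, each read on the opposite strand, and in Gimap9 they mark CACCC, bound by KLF factors.

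Motifs were searched on both strands of the 300-base windows from 250 bases before to 50 after each start, in 9 RefSeq entries for the 8 members (Gimap8 has 2). CACCC was in 6 of the 9 and in 57.5% of all 32851 promoters, TGTGGT in 3 and in 16.8%, and GTGTGA in 3 and in 14.5%. The 2 Gimap8 windows overlap and share their GTGTGA sites and a CACCC site, so Gimap8 enters both counts as 2 entries. The 3 entries with GTGTGA are thus of Gimap8 and Gimap7 only. Besides Gimap9, CACCC was in windows of Gimap8, Gimap4, Gimap5 and Gimap3. Besides Gimap7, TGTGGT was in Gimap4 and Gimap1, and GTGTGA in Gimap8. TTCNNNGAA, the STAT core, was in 4 of the 9 (Gimap8, Gimap6, Gimap7 and Gimap3) and in 8.30% of all promoters. Its Gimap7 match is not within the bases shown above. AGGTCA, the ROR core, was in 1 (16.3% of all), and GTAAACA, the forkhead core, in 1 (3.65%). TGACTCA, the AP-1 core (5.20% of all promoters), and CTTTGAT, the TCF core (3.73%), were in none of the 9 windows. A match describes letters only, and nothing here measured binding.

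The family was abundant in all libraries, and all 8 members were above the filter of 1 FPKM in each of them, from 4.69 to 522 FPKM. Their summed level was 1436, 827 and 1358 FPKM in Th1-1, 771, 777 and 1125 in Th17-1, and 658, 616 and 719 in Th17-17. The Th1-1 libraries were all above the Th17-17 libraries, and the Th17-1 libraries lay above those of Th17-17 and overlapped with Th1-1. By mean level, which FPKM allows to be compared between genes, Gimap4 was the most abundant member in Th1-1 and ranked 121 among the genes of the table. Gimap5 was the least abundant member in Th1-1 and Th17-1, and Gimap7 in Th17-17.

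**Figure D1:**
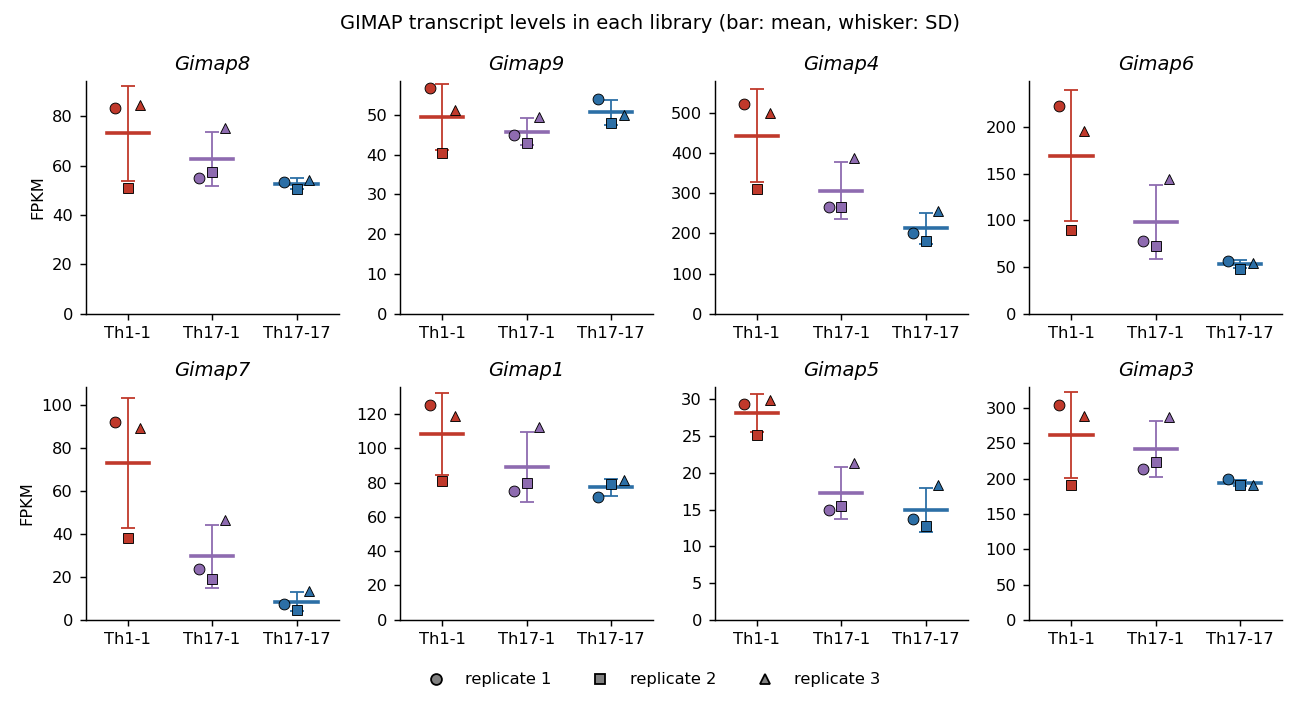
FPKM of each GIMAP gene (vertical axes, starting at 0) in the 3 libraries of each group, with the group mean as a bar and the SD as a whisker; marker shapes give the replicate number. Gimap7 is at 38.1 or more in Th1-1 and at 13.2 or less in Th17-17, while Gimap9 lies between 40.5 and 56.7 in all libraries.

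Gimap7, a GTPase that hydrolyses GTP as a dimer, varied most. Its level was 91.7, 38.1 and 89.0 FPKM in Th1-1, 23.8, 18.7 and 46.2 in Th17-1, and 7.52, 4.69 and 13.2 in Th17-17. The 3 groups stepped down without overlap between Th17-17 and either other group, while the highest Th17-1 library exceeded the lowest Th1-1 library. The highest library was 19.5 times the lowest, and its rank by mean level was 914 in Th1-1, 2595 in Th17-1 and 6862 in Th17-17.

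Gimap6, which is linked to autophagy, followed the same order. It was at 222.9, 89.7 and 195.3 FPKM in Th1-1, 77.9, 72.8 and 144 in Th17-1, and 56.7, 48.3 and 54.6 in Th17-17. All libraries of the first 2 groups were above those of Th17-17, and its highest library was 4.61 times its lowest. Gimap4, which promotes the death of T cells after their activation and is dispensable for their development, was at 522, 310.1 and 499.5 FPKM in Th1-1, 265, 266 and 389 in Th17-1, and 201, 182 and 255 in Th17-17. Here too neither of the other groups overlapped with Th17-17.

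Among the members known for lymphocyte survival, Gimap5, a lysosomal protein, was at 29.3, 25.2 and 29.9 FPKM in Th1-1, 14.9, 15.5 and 21.3 in Th17-1, and 13.8, 12.7 and 18.3 in Th17-17. The Th1-1 libraries stood above all others, and those of Th17-1 and Th17-17 overlapped. Gimap3, a mouse gene closely related to Gimap5, was at 305, 191 and 289 FPKM in Th1-1, 214, 224 and 287 in Th17-1, and 199, 191 and 191 in Th17-17. Gimap1 was at 125, 81.0 and 119 in Th1-1, 74.9, 79.5 and 112 in Th17-1, and 71.7, 78.9 and 81.4 in Th17-17. For both, replicate 2 of Th1-1 fell inside the range of Th17-17.

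Gimap8, the longest member, with several GTP-binding domains, was at 83.5, 50.9 and 84.7 FPKM in Th1-1, 55.1, 57.3 and 75.1 in Th17-1, and 53.5, 50.4 and 54.3 in Th17-17. Gimap9 was the least variable member, at 56.7, 40.5 and 51.2 FPKM in Th1-1, 44.8, 42.9 and 49.5 in Th17-1, and 54.1, 47.9 and 49.97 in Th17-17. Its highest library was 1.40 times its lowest, and the groups overlapped. One library stood low throughout: replicate 2 of Th1-1 was the lowest of its group for 8 of 8 members, and replicate 3 of Th17-1 was the highest of its group for 8 of 8. The share of all genes with these libraries lowest or highest was not counted. Whether these counts are particular to the GIMAP genes is therefore unknown. The level of the naive and resting T cell genes summed to 1220, 584 and 1025 FPKM in the Th1-1 libraries, so replicate 2 was lowest there as well, while for genes that T cell receptor signals induce it was the highest, at 949 against 747 and 875. Replicate 2 was also the lowest of Th1-1 for most other lists, so this was not particular to resting genes. These were the ATG8-family (219) and BCL-2 family (566) genes described below, and the T cell identity (1502), B cell, NK cell, endothelial and macrophage markers. Replicate 3 of Th17-1 had the highest CD8 marker sum of its group, 152 FPKM against 25.5 and 41.1. It was highest for the other lists too, except the receptor-induced genes, at 731 against 753 in replicate 1. The part of these in the GIMAP levels was not tested.

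Cells kept in Th1 condition had higher GIMAP levels than cells kept in Th17 condition for 4 of the 8 members (limma on log2(FPKM + 1), Benjamini-Hochberg adjusted p below 0.05 over all 10538 genes tested). In the same comparison 14.0% of all genes tested were higher and 28.9% lower, 42.9% in all. Gimap7 rose most, by 2.96 on the log2 scale (SE 0.45, adjusted p = 0.00128), which is 7.79-fold. Gimap6 was 1.55 higher (SE 0.35, adjusted p = 0.00742), Gimap4 1.04 higher (SE 0.23, adjusted p = 0.00715) and Gimap5 0.88 higher (SE 0.17, adjusted p = 0.00349). The other members did not pass: Gimap1 differed by 0.46 (adjusted p = 0.0806), Gimap8 by 0.43 (adjusted p = 0.106) and Gimap3 by 0.40 (adjusted p = 0.0942). Gimap9 differed by -0.05, with a 95% interval from -0.33 to 0.24 (adjusted p = 0.789), and by 0.12 with median-ratio scaling. None of the 8 was lower by limma, at an unadjusted p below 0.05 as well, where 6 were higher, against 16.4% of all genes tested higher and 35.7% lower at that threshold.

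The median difference over the members was 0.67, against -0.17 over all genes tested. In 4 of 8 members the Th1-1 libraries lay wholly above those of Th17-17, as in 16.4% of all genes tested; in none did they lie wholly below, as in 36.4% of all genes. The 4 calls passed in all 20 alternative analyses, and leaving out replicate 2 of Th1-1 raised the count from 4 to 7, adding Gimap1, Gimap3 and Gimap8. The all-gene count moved as well, with 1057 to 1662 higher on leaving out 1 library, against 1478 in the main fit. Median-ratio scaling, which moved the all-gene median to -0.01, gave 6 members, beside 2047 of all 10532 genes tested higher.

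**Figure D2:**
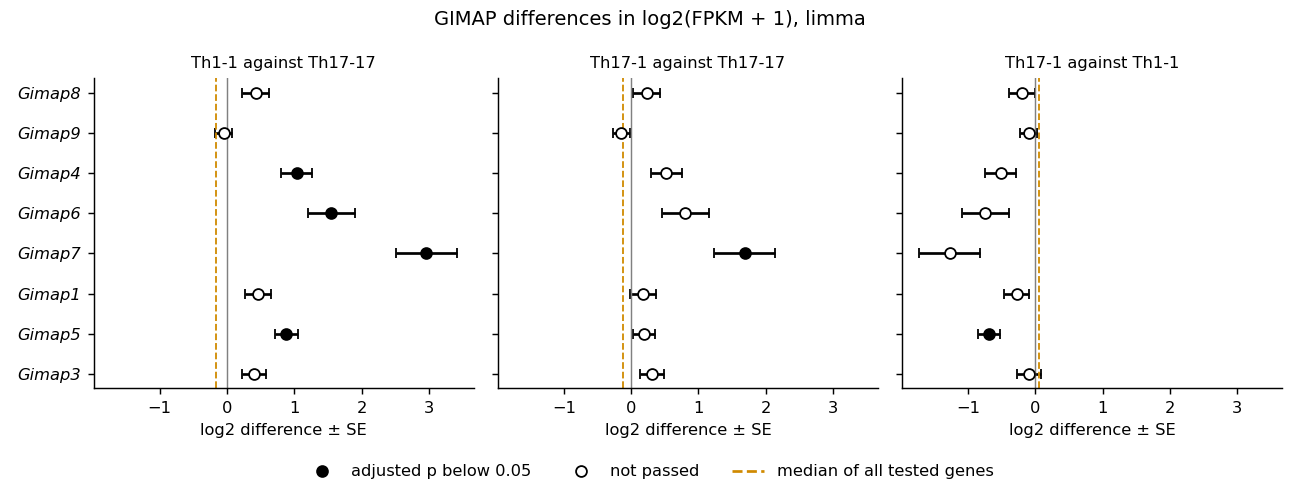
Difference in log2(FPKM + 1) between groups (horizontal axis, with SE) for each GIMAP gene in the 3 comparisons; filled points pass an adjusted p of 0.05 in limma and the dashed line is the median of all genes tested. Gimap7 has the largest difference in each panel, at 2.96, 1.69 and -1.27.

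In cells moved from Th17 to Th1 condition most GIMAP means lay between those of the other groups, but no member passed against both. Of all genes tested, 15.9% passed against Th17-17 and 10.5% against Th1-1. The share passing against both was not counted, so the lack of such a member says little about the family. The mean of Th17-1 was below that of Th1-1 for 8 of 8 members and above that of Th17-17 for 7 of 8, Gimap9 being the exception. The mean order Th1-1, Th17-1, Th17-17 from high to low was thus seen in 7 of 8 members, and in 1901 of the 10538 genes tested. A Th17-1 mean between the other means, in either direction, was common: it was seen in 6339 of the 10538 genes (60.2%). Against Th17-17, 1 of the 8 passed, where 6.43% of all genes tested were higher and 9.49% lower, 15.9% in all. That member was Gimap7, 1.69 higher (SE 0.45, adjusted p = 0.0356), which is 3.22-fold. Gimap6 was at 0.81 (adjusted p = 0.142), Gimap4 at 0.52 (adjusted p = 0.152) and Gimap3 at 0.31 (adjusted p = 0.258). For 5 members (Gimap3, Gimap4, Gimap6, Gimap7 and Gimap8) all Th17-1 libraries were above all Th17-17 libraries, as for 13.2% of all genes tested, and for none were they all below, as for 30.0%. None was lower by limma, also at an unadjusted p below 0.05, where 2 were higher, against 10.9% of all genes tested higher and 22.4% lower. The Gimap7 call was lost without replicate 1 or 3 of Th17-1 (adjusted p = 0.0808 and 0.101) and without replicate 1 or 2 of Th17-17 (0.115 and 0.135). It was also lost with replicates 1 and 2 of each group only (0.0596), and held with the Cd8a and Cd8b1 level as a covariate (1.90, adjusted p = 0.0161).

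Against Th1-1, the moved cells were lower for 1 of the 8 members, where 4.81% of all genes tested were lower and 5.67% higher, 10.5% in all. Gimap5 differed by -0.69 (SE 0.17, adjusted p = 0.0339). Gimap7 differed by -1.27 (SE 0.45, adjusted p = 0.109), Gimap6 by -0.75 (adjusted p = 0.212) and Gimap4 by -0.52 (adjusted p = 0.190). The median over the members was -0.40, against 0.05 over all genes tested. None was higher by limma, also at an unadjusted p below 0.05, where 2 were lower, against 11.7% of all genes tested lower and 14.8% higher. Only Gimap5 had non-overlapping groups, as for 12.9% of all genes tested in the lower direction and 16.3% in the higher. Its call was lost without replicate 1 or 3 of Th1-1 (adjusted p = 0.0930 and 0.119), without replicate 1 or 2 of Th17-1 (0.128 and 0.135), and without replicate 1 of Th17-17 (0.0565). Without replicate 2 of Th1-1, 5 members were lower, adding Gimap4, Gimap6, Gimap7 and Gimap8. Over all genes, leaving out 1 library moved the lower count between 120 and 794, from 507 in the main fit. The 3 comparisons share libraries, so their values are not separate evidence.

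Members made up different shares of the family in the 3 groups. Gimap7 was 5.85% of the summed GIMAP level on average in Th1-1, 3.20% in Th17-1 and 1.25% in Th17-17, and Gimap6 13.6%, 10.8% and 8.02%. Gimap3 had its lowest mean share in Th1-1, at 21.9%, 27.4% and 29.3%, as did Gimap9 at 4.20%, 5.25% and 7.65%. A share falls when other members rise more, and these are not falls in level. In the same order of groups, Gimap3 had means of 262, 242 and 194 FPKM, and Gimap9 49.4, 45.8 and 50.6. The ratio of Gimap7 to Gimap9, genes whose coding sequences are 66.6% identical, was 1.62, 0.940 and 1.74 in Th1-1, 0.531, 0.437 and 0.933 in Th17-1, and 0.139, 0.0980 and 0.265 in Th17-17. The 3 groups did not overlap in this ratio, which was chosen after the levels were seen. An exact two-sided permutation test gave p = 0.1 for each pair of groups (0.14 adjusted over 21 such tests of ratios to Gimap9), the smallest that 3 against 3 allows, so the design cannot reach 0.05 for it.

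**Figure D3:**
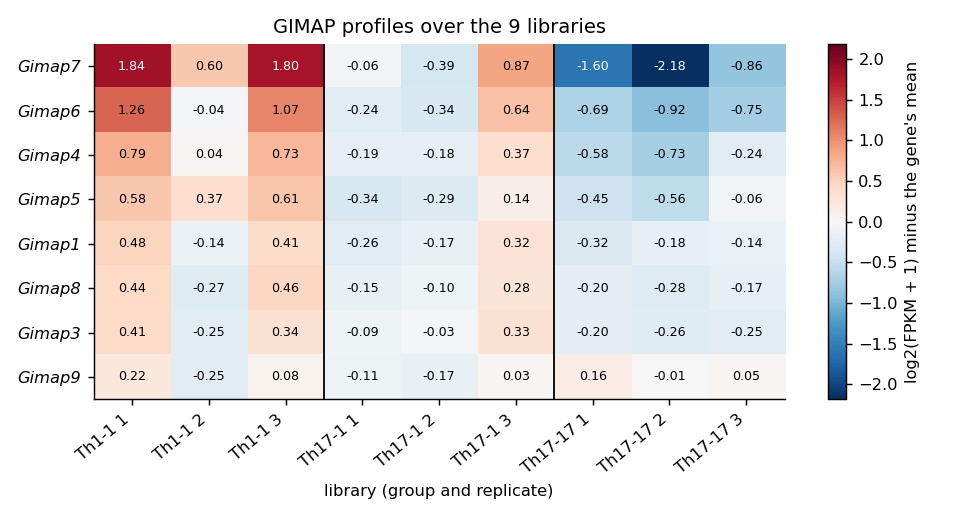
Each GIMAP gene's log2(FPKM + 1) minus its own mean over the 9 libraries (color and printed value), by library. Gimap7 runs from 1.84 to -2.18 and Gimap9 from 0.22 to -0.25, and replicate 2 of Th1-1 is the lowest Th1-1 library in every row.

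Within the family, likeness was measured as the root mean square difference between profiles centred on their own means over the 9 libraries, in log2 units. Gimap3 and Gimap8 were closest, at 0.0602, followed by Gimap1 and Gimap8 at 0.0836 and Gimap1 and Gimap3 at 0.107. Gimap4 and Gimap5 were 0.192 apart, and Gimap7 and Gimap9 were the farthest pair at 1.32. The closest pair, Gimap8 and Gimap3, lies at opposite ends of the cluster. Among 8091 other genes, those near the mean GIMAP profile included Rilpl2 at 0.0899, Tspoap1 at 0.0917 and Ptpn22 at 0.0999, a phosphatase that restrains T cell receptor signalling. Gpc1 (0.111), Cblb (0.115), Rhoc (0.120) and Arhgap18 (0.121) followed.

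The tested genes beside the cluster were lower, not higher, in Th1-1 than in Th17-17 on the deposited scale. Lower was also the commoner direction over all genes tested, with 28.9% lower and 14.0% higher in this comparison. Of the 5 nearest genes of the table on each side, 4 were tested and 6 were too low. In Th1-1 against Th17-17, Repin1 differed by -0.63 (adjusted p = 0.00446) and Zfp775 by -0.39 (adjusted p = 0.0343) on one side. On the other, Tmem176b, 63.0 kb away, differed by -1.51 (adjusted p = 0.000372) and Tmem176a, 70.1 kb away, by -1.96 (adjusted p = 0.000330); both encode membrane channel proteins linked to RORgt-expressing cells. Their means were 9.28, 35.2 and 28.0 FPKM for Tmem176b in Th1-1, Th17-1 and Th17-17, and 6.78, 27.8 and 28.5 for Tmem176a. Against Th1-1 the Th17-1 cells had 1.84 more Tmem176b and 1.94 more Tmem176a on the log2 scale (adjusted p = 0.000726 and 0.00178), and against Th17-17 neither passed. Nor did Repin1 (-0.41, limma adjusted p = 0.0577) or Zfp775 (-0.26, adjusted p = 0.186) pass in Th17-1 against Th17-17.

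**Figure D4:**
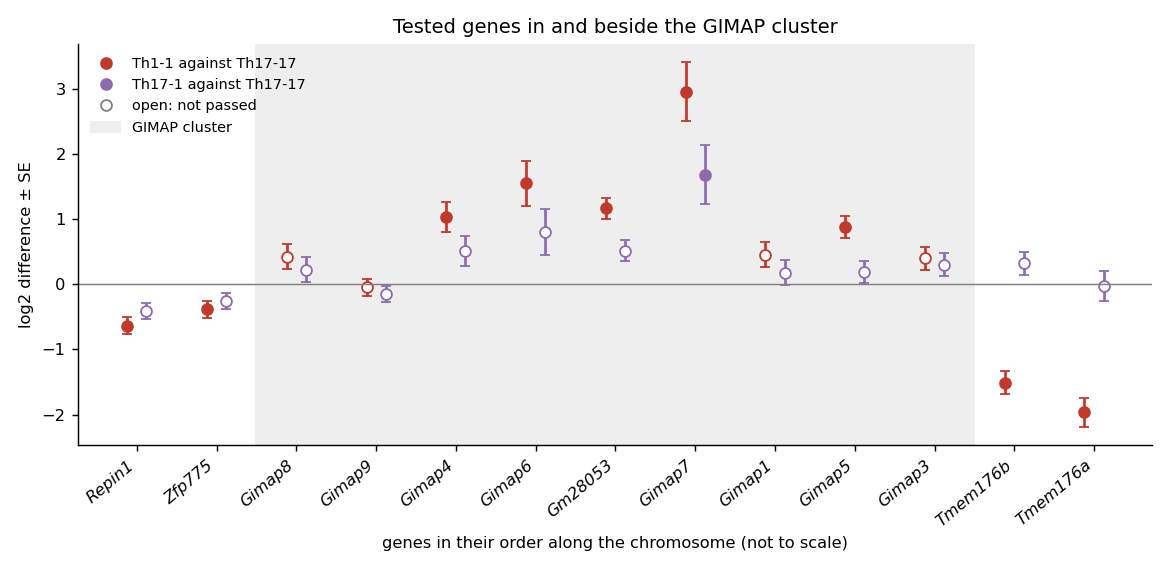
Difference in log2(FPKM + 1) (vertical axis, with SE) for the tested genes in and beside the GIMAP cluster, in chromosomal order and not to scale; filled points pass an adjusted p of 0.05. The 4 flanking genes lie between -0.39 and -1.96 in Th1-1 against Th17-17, and Gimap7 is at 2.96.

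Some GIMAP values may include reads of another gene, since how shared, overlapping and antisense reads were counted is not given in the sources used here. Gimap3 and Gimap5 coding sequences are 90.4% identical over 895 aligned bases, and 8.15% of the 50-base stretches of Gimap3 and 6.84% of those of Gimap5 also occur in another gene, so their levels are uncertain. Of Gimap1, 35.5% of stretches are shared, mostly with the antisense gene Gimap1os, which was not analysed here. For Gimap4, Gimap8 and Gimap9 the share was 0, and for Gimap7 it was 1.39%. That share of Gimap7 is with Gm28053, a read-through gene model over Gimap7, Gimap1 and Gimap5, named after its values were seen. Its means were 2.83, 1.43 and 0.701 FPKM in Th1-1, Th17-1 and Th17-17, and it was 1.17 higher in Th1-1 than in Th17-17 (adjusted p = 0.000834). The part of its reads in the Gimap7 value was not tested.

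Genes of the pathways that GIMAP proteins are tied to were counted in the same way, on the deposited scale only; in Th1-1 against Th17-17 these counts stand beside 14.0% of all genes tested higher and 28.9% lower. Of the 5 ATG8-family genes of autophagy, to which the Gimap6 partner belongs, 3 were higher in Th1-1 than Th17-17: Gabarap (0.87, from 76.5 to 142 FPKM), Gabarapl1 (0.69) and Gabarapl2 (0.34). Of 11 BCL-2 family genes 5 were higher, led by the death-promoting Pmaip1 (2.08) and Bcl2l11 (1.85) and the protective Bcl2l1 (1.10). Their medians were 0.69 and 0.48. Of 18 naive and resting T cell genes, 7 were lower, led by Klf2 (-3.37), S1pr1 (-3.04) and Tcf7 (-2.91), and 1 was higher, Ly6c1 (2.71). The median of this list was -0.52, against 0.67 for the GIMAP genes and -0.17 for all genes tested. Of 12 genes that T cell receptor signals induce, 9 passed as higher, with a median of 1.34, led by Il2ra (2.31), Nr4a2 (2.13) and Dusp5 (2.08); whether this bears on the GIMAP levels was not tested.

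In Th17-1 against Th17-17, where 6.43% of all genes tested were higher and 9.49% lower, 0 of the 5 ATG8-family genes passed by limma (median -0.03). At an unadjusted p below 0.05, 2 of them were higher, against 10.9% of all genes tested. Of the 18 naive and resting genes 1 was higher, Ly6c1 (1.80), and 2 were lower, Klf2 (-1.48) and S1pr1 (-1.10), with a median of 0.04. In this comparison 2 of 11 BCL-2 family genes and 4 of 12 receptor-induced genes were higher (medians 0.18 and 0.69, against 0.27 for the GIMAP genes and -0.12 for all genes tested). Against Th1-1, where 5.67% of all genes tested were higher and 4.81% lower, 7 of 18 naive and resting genes were higher in Th17-1, led by Tcf7 (2.60), Ccr7 (2.21) and S1pr1 (1.93), and 1 was lower, Ly6c1 (-0.92, adjusted p = 0.0442). The median of that list was 0.51, against -0.40 for the GIMAP genes. In the same comparison 4 of 12 receptor-induced genes, 1 of 5 ATG8-family genes (Gabarap) and 1 of 11 BCL-2 family genes (Pmaip1) were lower. A count of 1 in lists this short says little beside the share of all genes. At an unadjusted limma p below 0.05, 7 of 12 receptor-induced, 4 of 5 ATG8-family and 4 of 11 BCL-2 family genes were lower. Of all genes tested, 11.7% were lower at that threshold.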

How the data were processed

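Libraries were aligned with HISAT2 to mm10 and DESeq2 was used, per the submitters' processing notes; versions, annotation and counting: not given in the sources used here. The authors deposited FPKM values, 3 libraries for each of 3 groups; read depth is unknown. From these, log2(FPKM + 1) was fitted with limma 3.58.1 (R 4.3.3, trend) over all 9 libraries and 6 residual degrees of freedom, for genes of at least 1 FPKM in at least 3 libraries, with Benjamini-Hochberg adjustment and a threshold of 0.05. The fold changes are on this scale, which understates low genes. Simulated data holding 200 genes of known change were used to test it. Named genes were the 8 members, the 5 nearest genes on each side, the 8 nearest profiles with a mean of at least 5 FPKM (1 is not reported here), and up to 3 called genes per list and direction. Members and lists were chosen with earlier results of these data known. The Gimap7 to Gimap9 ratio, shared stretches, coding identity and Gm28053 were chosen after values were seen; coding identity (GENCODE M21) took the place of protein identity. Promoters are RefSeq, GRCm38.p6. The 20 alternatives varied the pseudocount, filter, scaling, fitted groups, a CD8 covariate, the replicate block and the libraries.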

Additional observations from a re-analysis of the deposited data

How the results depend on the processing

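Each of 24 member differences was recomputed under 20 alternatives, and 449 of 480 values kept their direction and their side of the threshold, with 13 newly past it, 12 no longer past it and 6 of opposite sign. Some alternatives cannot change a difference, only its p-value, such as the filters or leaving out a library of the group not compared. Most of the 24 had not passed in the main fit, so for them a kept side means still not passing. Gimap4, Gimap5, Gimap6 and Gimap7 passed in Th1-1 against Th17-17 in all 20, with adjusted p (limma) at most 0.0407. Gimap7 in Th17-1 against Th17-17 and Gimap5 in Th17-1 against Th1-1 passed in 14 of 20 each. With no filter on low values neither comparison of Th17-1 kept its member (0 higher against Th17-17, 0 lower against Th1-1; adjusted p = 0.0678 and 0.0557), and with replicates 1 and 2 only the count against Th17-17 was 0. Leaving out 1 library gave 4 to 7 members higher in Th1-1 against Th17-17, 0 to 2 higher in Th17-1 against Th17-17 and 0 to 5 lower in Th17-1 against Th1-1. The same counts over all genes ran from 1057 to 1662, 379 to 889 and 120 to 794. The sign changed for Gimap9 in Th1-1 against Th17-17, at 0.12 with median-ratio scaling and from -0.15 to 0.089 on leaving out 1 library (0.089 without Th1-1 replicate 2, 0.0021 without Th17-17 replicate 1). On leaving out 1 library, Gimap1 in Th17-1 against Th17-17 ranged from -0.00072 (without Th17-1 replicate 3) to 0.29. In Th17-1 against Th1-1, Gimap3 ranged from -0.31 to 0.028 and Gimap9 from -0.23 to 0.0041, both above 0 without Th1-1 replicate 1. The cause was not tested.

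The labels do not say that a replicate number marks a shared source, and the correlations of same-numbered deviations ran from -0.178 to 0.659, up to 0.537 and 0.659 for replicates 2 and 3 of Th17-1 and Th1-1. Pairing was therefore not established, nor was it excluded, and replicate 3 had the highest CD8 marker sum in all 3 groups. With the replicate block, 2 members were lower in Th17-1 against Th1-1, Gimap7 being added (adjusted p = 0.00798). Over all genes, 302 to 659 were lower there in the alternatives other than leaving out 1 library.

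Over all genes, 1478 were higher and 3048 lower in Th1-1 against Th17-17, and 2047 and 1752 with median-ratio scaling; in Th17-1 against Th17-17 the counts were 678 and 1000, and 852 and 498. Leaving out 1 library moved the latter's lower count between 302 and 1453, and the counts for Th17-1 against Th1-1 between 195 and 1067 higher and 120 and 794 lower, from 597 and 507. Depth is unknown, so no limit from counting can be given.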
